A study of Mus musculus with 9 samples.

Results

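The genes described here are 6 Wnt ligands, Wnt16, Wnt11, Wnt6, Wnt5a, Wnt4 and Wnt3a, together with the R-spondin Rspo3. They are 7 of 18193 genes on the array and were read by every probe set annotated to 1 of them alone, 13 of 45037 probe sets in all. They had been picked with results of these same arrays known, so their values over the 9 samples are given as a description, with standard errors and intervals but no p-values. A gene is represented by the brightest of its probe sets, the one with the highest mean over all 9 arrays, and its dimmer probe sets are given beside it.

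The arrays profiled cells sorted by flow cytometry from the hypaxial part of mouse interlimb somites at embryonic day 9.5, with 3 arrays in each of 3 groups. In PAX3-FKHR/GFP embryos 1 Pax3 allele carried GFP and the other carried PAX3-FKHR, a fusion of the paired-box factor PAX3 with the forkhead factor FOXO1 that drives alveolar rhabdomyosarcoma. This allele was conditional and had been activated by Cre under the PGK promoter, which is active in all tissues, so that PAX3-FKHR was made wherever the Pax3 locus was active, and no unmodified Pax3 allele was left in these embryos. In GFP/+ embryos 1 allele carried GFP and the other was unmodified. The GFP+ cells of both genotypes were compared with each other, to ask what PAX3-FKHR changes in Pax3 expressing cells, and the GFP+ cells of GFP/+ embryos were compared with GFP- cells, to ask what marks the Pax3 expressing population. The labels give no Pax3 genotype for the GFP- cells, which the study places in GFP/+ embryos in most of its text and in wild-type embryos in 1 list. Each sample was pooled from embryos of 1 genotype on a C57 BL6/DBA2 background.

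Wnt proteins are lipid-modified secreted signals that bind Frizzled receptors, either together with LRP co-receptors to stabilise beta-catenin or through co-receptors such as ROR and RYK to control cell polarity and movement. R-spondins are secreted proteins that bind LGR receptors and draw the ubiquitin ligases ZNRF3 and RNF43 away from Frizzled, so that a cell responds more strongly to a given amount of Wnt. In the early somite, Wnt ligands from the dorsal neural tube and the surface ectoderm act on the dermomyotome, the dorsal epithelium that holds the muscle progenitors.

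Wnt16 lies on mouse chromosome 6, where RefSeq places the gene at chr6:22288178-22298522 on the plus strand of GRCm38.p6. Because its values follow the PAX3-FKHR allele most strongly of the 7 genes, the 201 bases just upstream of its annotated transcript, chr6:22287977-22288177 on the same strand, are shown as RefSeq holds them:
Wnt16 upstream: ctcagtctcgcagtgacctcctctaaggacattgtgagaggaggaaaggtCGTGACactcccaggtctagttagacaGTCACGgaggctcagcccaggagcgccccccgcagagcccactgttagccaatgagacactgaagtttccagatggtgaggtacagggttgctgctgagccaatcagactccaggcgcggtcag
The capitals mark GTCACG, the core of the sequence that Pax paired domains are known to bind, found here once on each strand. The match on the opposite strand, read as CGTGAC in the printed direction, spans 22288027 to 22288032 and the match on the gene's own strand spans 22288054 to 22288059, so they start 27 bases apart. They lie 200 and 173 bases before the start site that the RefSeq promoter table uses, which falls inside the annotated gene. GTCACG was searched on both strands of 32851 promoter windows of 300 bases, of which 8.22% held at least 1 match and 1.01%, or 332, held 2 or more. The homeodomain core ATTA was found in 58.0% of these windows and the forkhead motif TGTTTAC in 3.65%, and the Wnt16 window held neither. Windows were at hand for 5 of the 7 genes. Those of Wnt6, Wnt4 and Wnt3a held none of the 3 motifs, and of the pair of Wnt11 windows 1 held 4 ATTA matches and the other none. The motifs were chosen after this sequence had been read, and a match describes the letters only.

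Expression values are log2 intensities from RMA, a method that corrects background, makes the arrays' distributions alike and combines the probes of a probe set. The median of an array was 4.633 at the lowest and 4.68 at the highest. Over all probe sets Pearson r was 0.9962 to 0.9979 for arrays of the same group and 0.987 to 0.9961 for arrays of different groups. A probe set was counted as called at an adjusted p under 0.05 in limma with a log2 difference of at least 0.5, which is 1.41-fold. The sorted populations were checked against marker genes, each summed on the linear intensity scale. Dermomyotome markers summed to 4780 to 5907 in PAX3-FKHR/GFP cells and 4559 to 4694 in GFP/+ cells, against 459 to 501 in GFP- cells, and 8 of 9 were called higher in GFP/+ than in GFP- cells. Between the genotypes, where Wnt16 differed too, 3 of the 9 were higher with PAX3-FKHR (Lbx1 by 1.42, Tcf15 by 0.92 and Pax7 by 0.67). In the same comparison 2 were lower, Pax3 by -0.91 and Sim1 by -0.66. Pax3 is tied to the design in both comparisons and is no independent marker. Cells were sorted on its locus, and PAX3-FKHR/GFP embryos kept no unmodified Pax3 allele. Its probe set still averaged 8.29 in PAX3-FKHR/GFP cells, against 9.20 in GFP/+ cells and 4.50 in GFP- cells. What it reads from the modified alleles was not tested. Because these are bulk samples, fewer cells of a type and less RNA per cell cannot be told apart.

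Wnt16 was the member with the widest range. This ligand is known for roles in bone and joint tissue, and in zebrafish its expression in somites is needed for blood stem cells to form. Its single probe set gave 9.19, 9.27 and 9.36 in the 3 PAX3-FKHR/GFP samples, 6.62, 6.99 and 6.92 in the GFP/+ samples, and 5.14, 4.54 and 5.02 in the GFP- samples. All PAX3-FKHR/GFP samples lay above all GFP/+ samples, and all of these above all GFP- samples, with no overlap at either step. The gaps between the nearest samples of neighbouring groups were larger than the whole range within any group.

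Between the genotypes the difference in Wnt16 was 2.43 on the log2 scale (SE 0.104, 95% interval 2.20 to 2.66), so that PAX3-FKHR/GFP cells stood 5.39-fold above GFP/+ cells (4.59 to 6.31). Only 3 of 45037 probe sets had a larger positive difference. GFP/+ cells exceeded GFP- cells by 1.94 (SE 0.154, 95% interval 1.60 to 2.29), or 3.85-fold (3.03 to 4.89), which ranked 59 among all probe sets. Without any 1 of the samples in turn these differences stayed between 2.32 and 2.50 and between 1.76 and 2.07. From the means, PAX3-FKHR/GFP cells stood 4.37 log2 units, or 20.7-fold, above GFP- cells. In GFP- cells Wnt16 lay at percentiles 48.1 to 56.2 of all probe sets, near the array median, so both folds over GFP- cells rest on a dim value.

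**Figure D1:**
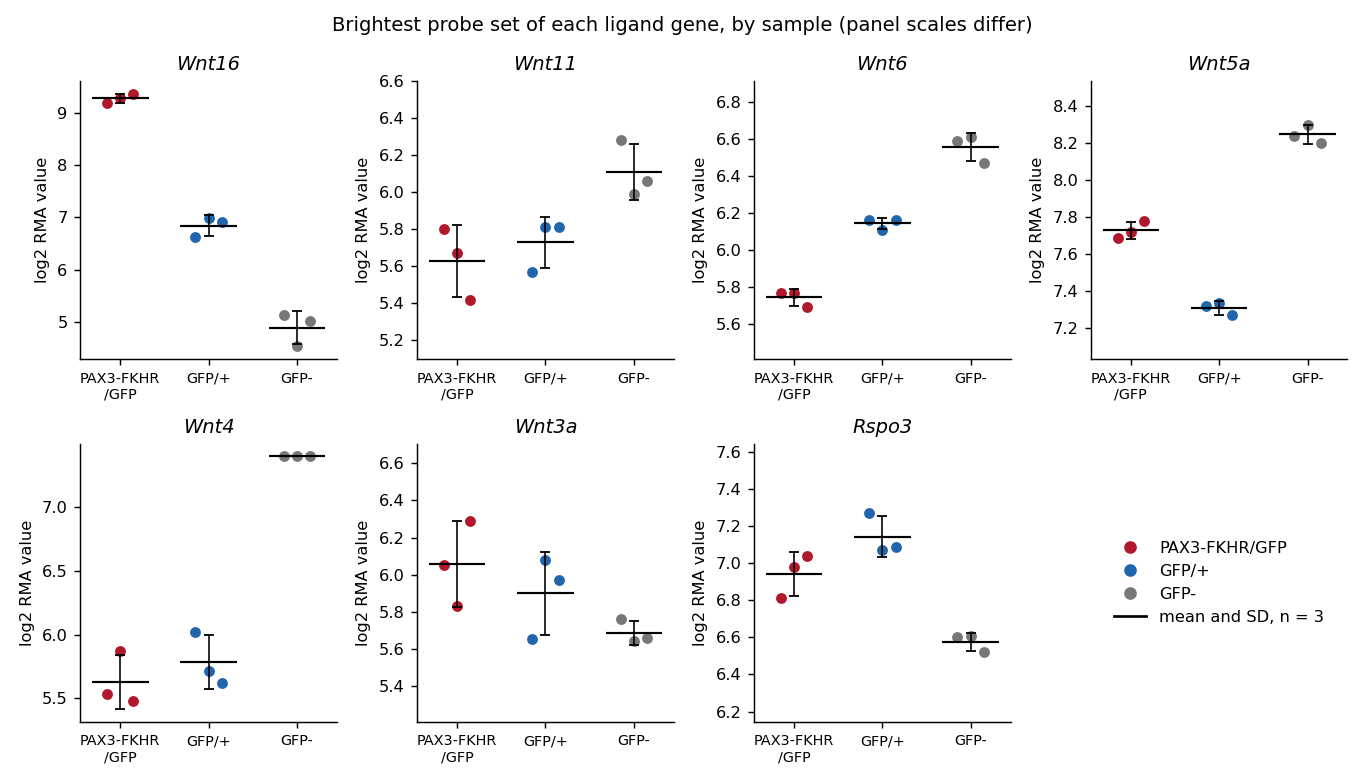
Log2 RMA value (vertical axis) of the brightest probe set of each of the 7 genes in every sample, with PAX3-FKHR/GFP left of GFP/+ and GFP- at the right; points are samples, horizontal lines are group means and error bars are SDs (n = 3), and the panel scales differ. Wnt16 falls into 3 separate levels around 9.27, 6.84 and 4.90, whereas Wnt4 is high in GFP- cells alone and Wnt5a is lowest in GFP/+ cells.

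The genes whose levels ran most nearly parallel to Wnt16 were sought among 651 other genes with an SD of at least 0.5 over the 9 samples. The 5 with the highest Pearson r were Lrmp (0.997), which encodes a membrane protein of the endoplasmic reticulum, Sec1 (0.995), a fucosyltransferase gene, Lbx1 (0.995), a homeobox gene of migrating muscle progenitors, Lurap1l (0.994) and Hes1 (0.993), a transcriptional repressor downstream of Notch. Each r is over 9 samples in 3 groups and so mostly reflects the group means. Lbx1 averaged 7.20 in PAX3-FKHR/GFP cells, 5.78 in GFP/+ cells and 4.42 in GFP- cells, and Hes1 averaged 10.89, 10.20 and 9.63 in the same order of groups. The 5 genes had smaller steps than Wnt16 in both comparisons. The same search, with the same SD limit, was made for the other members. Among these only Wnt4 reached that limit itself (SD 0.863), so genes varying as little as the rest were not searched.

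**Figure D2:**
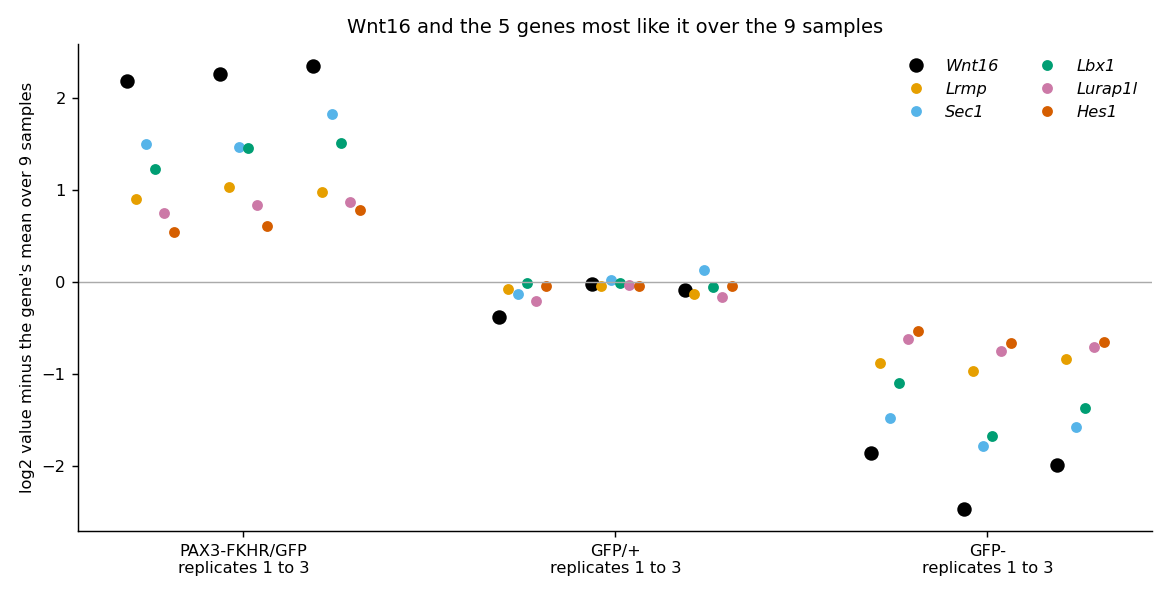
Log2 value minus the gene's own mean over the 9 samples (vertical axis) for Wnt16 and the 5 genes most like it, each point 1 sample. Wnt16, in black, spans from 2.35 above its mean in a PAX3-FKHR/GFP sample to -2.47 in a GFP- sample, while GFP/+ samples of all 6 genes lie near 0.

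Wnt5a, a ligand known mainly for beta-catenin independent signalling in outgrowing tissues, had another order. Its brightest probe set gave 7.69, 7.72 and 7.78 in PAX3-FKHR/GFP samples, 7.32, 7.34 and 7.27 in GFP/+ samples, and 8.24, 8.30 and 8.20 in GFP- samples. The groups did not overlap, and GFP/+ cells were lowest with PAX3-FKHR/GFP cells between them and GFP- cells. The difference of PAX3-FKHR/GFP from GFP/+ cells was 0.42 (SE 0.0747, 95% interval 0.25 to 0.59), or 1.34-fold, which did not reach the fold limit. GFP/+ cells were lower than GFP- cells, by -0.93 on the log2 scale (SE 0.0595, 95% interval -1.07 to -0.80), at 52.3% of the GFP- level.

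The 3 dimmer Wnt5a probe sets were compared with this order. The one reading 5.55, 5.50 and 5.63 in PAX3-FKHR/GFP samples gave 5.31, 5.12 and 5.09 in GFP/+ samples and 5.85, 5.73 and 5.93 in GFP- samples, so its 3 groups stood in the same order without overlap. Its differences were 0.39 (SE 0.0949) between the genotypes and -0.66 (SE 0.0905) between GFP/+ and GFP- cells. The other two differed by 0.12 and -0.02 between the genotypes, where their samples overlapped, and by -0.49 and -0.21 between GFP/+ and GFP- cells. Pmp22 (r = 0.996), a myelin protein gene, and Elavl4 (r = 0.993), which encodes a neuronal RNA-binding protein, were most like Wnt5a over the 9 samples.

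Wnt6 is known as a ligand of the surface ectoderm that helps to keep the dermomyotome epithelial. It read 5.77, 5.77 and 5.69 in PAX3-FKHR/GFP samples, 6.16, 6.11 and 6.16 in GFP/+ samples, and 6.59, 6.61 and 6.47 in GFP- samples. The 3 groups did not overlap and stood in the reverse of the Wnt16 order. PAX3-FKHR/GFP cells differed from GFP/+ cells by -0.40 (SE 0.0806, 95% interval -0.58 to -0.22) and stood at 75.9% of their level, and GFP/+ cells differed from GFP- cells by -0.41 (SE 0.0703, 95% interval -0.57 to -0.25) and stood at 75.1%. Neither difference reached the fold limit. The dimmer Wnt6 probe set, of a kind that can be shared between transcripts, kept the order without overlap, with differences of -0.38 (SE 0.113) and -0.64 (SE 0.0971), and the second of these was called. Scube3 (r = 0.994), which encodes a secreted signalling protein, and Lypd6 (r = 0.988) were most like Wnt6.

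Wnt4, the ligand that turns kidney mesenchyme into epithelium, was set apart by GFP- cells. Its brighter probe set gave 5.53, 5.87 and 5.48 in PAX3-FKHR/GFP samples, 6.02, 5.71 and 5.62 in GFP/+ samples, and 7.40 in each of the 3 GFP- samples (SD 0.00246). PAX3-FKHR/GFP and GFP/+ samples overlapped, and both lay below every GFP- sample. The genotypes differed by -0.16 (SE 0.133, 95% interval -0.45 to 0.14), and by -0.28 (without PAX3-FKHR/GFP replicate 2) to -0.04 (without GFP/+ replicate 1) when single samples were left out. GFP/+ cells differed from GFP- cells by -1.62 (SE 0.10, 95% interval -1.84 to -1.39) and stood at 32.6% of their level. The dimmer probe set differed by -0.09 between the genotypes, with overlap, and by -1.41 (SE 0.12) between GFP/+ and GFP- cells. Irx3 (r = 0.995), a homeobox gene, and Tek (r = 0.994), the endothelial angiopoietin receptor gene, were most like Wnt4.

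Wnt11 is known for its part in convergent extension movements and, in chick, is expressed at the medial lip of the dermomyotome. It read 5.80, 5.67 and 5.42 in PAX3-FKHR/GFP samples, 5.57, 5.81 and 5.81 in GFP/+ samples, and 6.28, 5.99 and 6.06 in GFP- samples. The genotypes overlapped and both lay below GFP- samples. The difference between the genotypes was -0.10 (SE 0.115, 95% interval -0.35 to 0.16), and without PAX3-FKHR/GFP replicate 3 it was 0.01. GFP/+ cells differed from GFP- cells by -0.38 (SE 0.101, 95% interval -0.61 to -0.16), at 76.7% of their level, which was not called. L1td1 (r = 0.944) and Csf1r (r = 0.917), a receptor gene of macrophages, were most like it.

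Wnt3a, a beta-catenin dependent ligand of the dorsal neural tube and the tail bud, showed the least separation of the groups. It read 6.05, 5.83 and 6.29 in PAX3-FKHR/GFP samples, 5.65, 6.08 and 5.97 in GFP/+ samples, and 5.76, 5.64 and 5.66 in GFP- samples. PAX3-FKHR/GFP overlapped GFP/+ and GFP/+ overlapped GFP-, whereas every PAX3-FKHR/GFP sample lay above every GFP- sample. The differences were 0.16 (SE 0.139, 95% interval -0.15 to 0.47) between the genotypes and 0.22 (SE 0.11, 95% interval -0.03 to 0.46) between GFP/+ and GFP- cells. With 1 sample left out at a time they ranged from 0.03 (without GFP/+ replicate 1) to 0.27 (without PAX3-FKHR/GFP replicate 2) and from 0.13 (without GFP/+ replicate 2) to 0.34 (without GFP/+ replicate 1). Its nearest genes, Net1 (r = 0.818) and Grrp1 (r = 0.813), followed it less closely than those named for the other 6 members.

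Rspo3 was, beside Wnt16, the member called higher in GFP/+ than in GFP- cells. Its brighter probe set gave 6.81, 6.98 and 7.04 in PAX3-FKHR/GFP samples, 7.27, 7.07 and 7.09 in GFP/+ samples, and 6.60, 6.61 and 6.52 in GFP- samples. GFP/+ samples were highest and GFP- samples lowest, and no 2 groups overlapped, although the lowest GFP/+ sample and the highest PAX3-FKHR/GFP sample lay close together. PAX3-FKHR/GFP cells differed from GFP/+ cells by -0.20 (SE 0.0933, 95% interval -0.41 to 0.01), and these 2 neighbouring levels do not differ beyond that interval. GFP/+ cells exceeded GFP- cells by 0.57 (SE 0.0752, 95% interval 0.40 to 0.74), or 1.48-fold (1.32 to 1.66). The dimmer Rspo3 probe set overlapped in both comparisons, with differences of -0.22 and 0.18. Averaging both probe sets gave 0.38 for the second comparison, and the study's local pooled error test gave 0.49, both under the fold limit of 0.5. Dock5 (r = 0.976), a Rac exchange factor gene, and Atl1 (r = 0.973), which shapes the endoplasmic reticulum, were most like Rspo3.

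**Figure D3:**
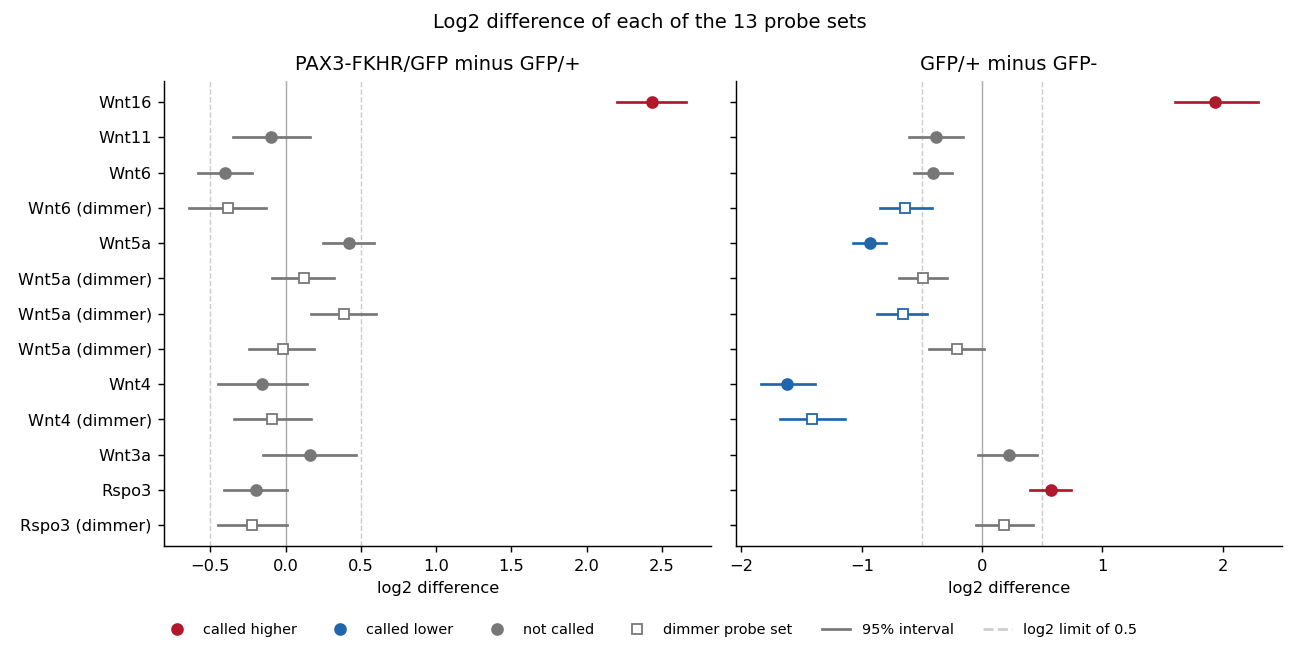
Log2 difference (horizontal axis) of all 13 probe sets of the 7 genes for PAX3-FKHR/GFP minus GFP/+ and for GFP/+ minus GFP-, with 95% intervals from the limma fit, open squares for dimmer probe sets and dashed lines at the log2 limit of 0.5. Wnt16 lies far to the right in both panels at 2.43 and 1.94, and Wnt4 lies farthest to the left at -1.62 between GFP/+ and GFP- cells.

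Counted over the members, 1 of 13 probe sets, that of Wnt16, was called higher between PAX3-FKHR/GFP and GFP/+ cells and 0 were called lower. Of all probe sets 1.36% were called, 0.884% higher and 0.473% lower. The groups did not overlap in 6 of the 13, beside 13.1% of all probe sets. By gene, 1 of 7 was called, beside 2.02% of all genes, and 4 of 7 did not overlap, beside 14.6%. The median difference over the 7 genes was -0.10, against -0.001 over all genes. Between GFP/+ and GFP- cells 2 probe sets were called higher (Wnt16 and Rspo3) and 5 lower (both of Wnt4, a pair of Wnt5a and the dimmer one of Wnt6), beside 4.65% of all probe sets, of which 1.42% were higher and 3.24% lower. The groups did not overlap in 10 of 13, beside 23% of all probe sets. By gene, 4 of 7 were called, beside 6.96% of all genes, and 6 of 7 did not overlap, beside 28.2%. The median over the 7 genes was -0.38 in this comparison, against 0.008 over all genes. Since the genes were picked on these values, nothing is read from these shares.

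The other ligands of the array were set beside them, from lists that were also written with results of these arrays known. Of 13 further Wnt genes and 3 further R-spondins, 0 were called between PAX3-FKHR/GFP and GFP/+ cells by limma, beside 2.02% of all genes. The same held for all 25 of their probe sets, beside 1.36% of all probe sets. Wnt16 was the single ligand called among 23 genes there, and with shares this low nothing is read from the 0 calls. From the brightest probe sets the differences lay between -0.19 (Wnt2, SE 0.151) and 0.24 (Wnt5b, SE 0.0815), and among the dimmer ones a Wnt7a probe set reached -0.42 (SE 0.123). Wnt7a, Wnt7b, Wnt5b and Wnt10b lay above every array median in both genotypes. Most of the others lay under the lowest array median (4.633), such as Wnt3 at 2.81 and 2.68 and Rspo2 at 3.83 and 3.95. At such levels a small difference does not show an expressed, unchanged ligand. The brightest of the further Wnt genes were Wnt7a (-0.07, SE 0.0812) and Wnt7b (-0.05, SE 0.114), and the brightest R-spondins were Rspo1 (-0.10, SE 0.101) and Rspo2 (-0.12, SE 0.106). Between GFP/+ and GFP- cells 0 of the 16 were higher and 6 were lower, beside 1.92% and 5.05% of all genes.

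The R-spondins of this second comparison ran in opposite directions. Rspo2, which acts in limb and lung growth, was lower in GFP/+ than in GFP- cells by -3.17 (SE 0.083, limma adjusted p = 7.08e-09), or 8.98-fold, although a dimmer Rspo2 probe set differed by only -0.03. Rspo1, known from ovary development, was lower by -2.36 (SE 0.0901, limma adjusted p = 9.5e-08), or 5.12-fold, and Rspo4, a gene of nail growth, differed by -0.40 (limma adjusted p = 0.19). Rspo3 thus stood at 1.48-fold higher in GFP/+ cells on an array where its relatives Rspo1 and Rspo2 were lower. The Rspo3 call was lost with the local pooled error test (0.49) and with the mean of its probe sets (0.38). Rspo1 and Rspo2 averaged 4.28 and 3.95 in GFP/+ cells, under the lowest array median (4.633), so their folds rest on dim values.

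Among the further Wnt genes the largest difference was in Wnt2, a ligand of lateral mesoderm and developing lung, which was lower in GFP/+ than in GFP- cells by -3.29 (SE 0.177, limma adjusted p = 1.15e-06), or 9.81-fold. Wnt5b was lower by -0.73 (SE 0.0686, limma adjusted p = 7.4e-05). Wnt7b and Wnt9b, both ligands of epithelia, were lower by -0.50 (limma adjusted p = 0.00841) and -0.51 (limma adjusted p = 0.0075). The Wnt7b call was lost without any 1 of 4 samples (GFP/+ replicates 2 and 3, GFP- replicates 1 and 2), with values of -0.44 to -0.48, and that of Wnt9b without GFP/+ replicate 2 (-0.44) or GFP- replicate 3 (-0.49). Dimmer probe sets of Wnt7b (0.12, SE 0.0806) and Wnt9b (-0.14, SE 0.104) were not called. The brightest Wnt7a probe set differed by -0.08 (SE 0.0689), while a dimmer one was lower by -1.85 (SE 0.0916, limma adjusted p = 6.36e-07) and is named because of that value. Wnt10b, the next brightest Wnt gene not called here, differed by 0.09 (SE 0.0783).

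**Figure D4:**
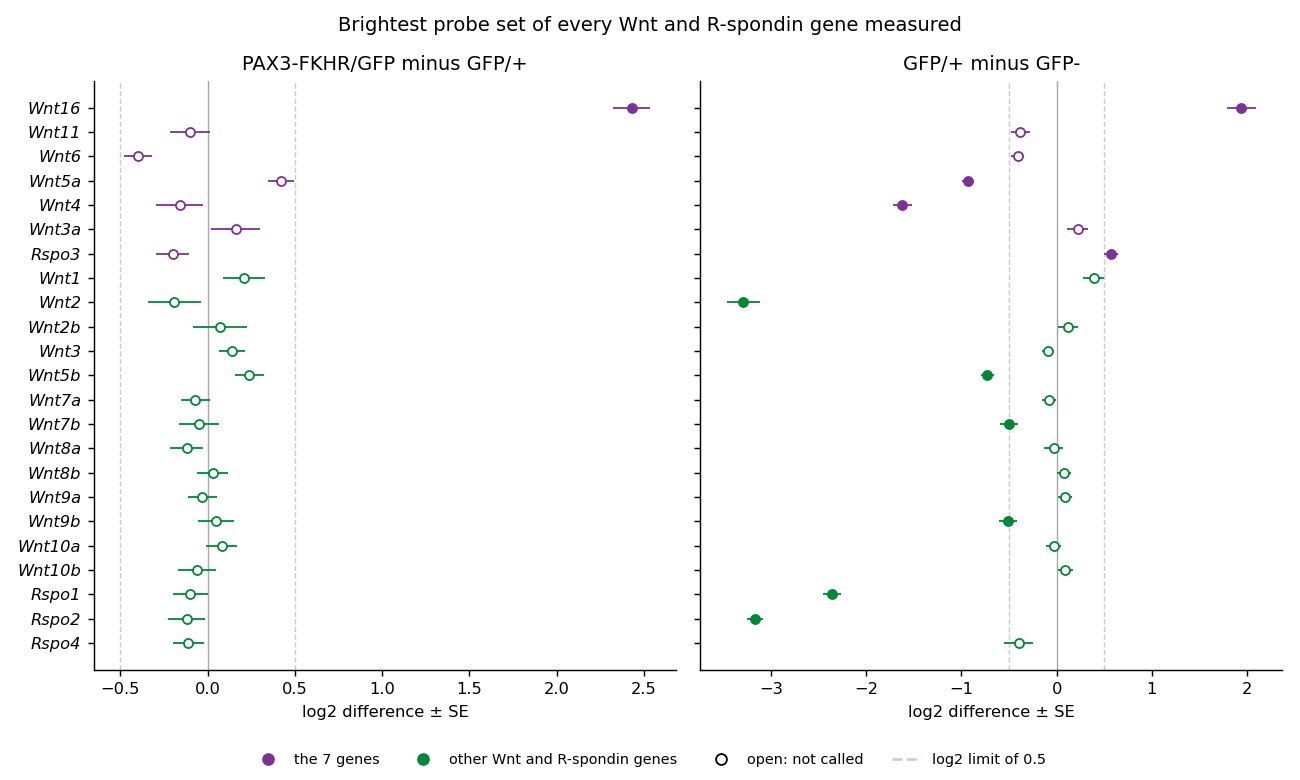
Log2 differences of the brightest probe sets of all 23 Wnt and R-spondin genes (horizontal axis, with SE bars) in both comparisons, with the 7 described genes in purple, the other 16 in green and open circles for genes not called. Wnt16 stands apart at 2.43 between the genotypes, and between GFP/+ and GFP- cells Wnt2, Rspo2 and Rspo1 reach -3.29, -3.17 and -2.36 while Wnt16 and Rspo3 lie on the positive side.

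The genes with which the ligands act were counted next. Of 51 measured genes on all 7 pathway lists, which include the 16 other ligands, 3 were called higher and 1 lower with PAX3-FKHR, beside 1.31% and 0.715% of all genes, and their median difference was 0.04. The 2 secretion genes, Porcn, which acylates Wnt proteins (0.14, SE 0.0878), and Wls, which carries them to the surface (-0.07, SE 0.0881), were not called. By limma 0 of 16 receptors and co-receptors were called, the brightest being Fzd2 (-0.07, SE 0.0821) and Fzd7 (0.07, SE 0.11). Of the 5 R-spondin receptor and ligase genes 0 were called, among them Lgr4 (0.14, SE 0.0898) and Znrf3 (-0.07, SE 0.106), and 0 of the 4 heparan sulfate modifiers, which shape Wnt spread outside the cell, among them Sulf2 (0.13, SE 0.102) and Gpc3 (0.02, SE 0.111).

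All 4 calls between the genotypes were among the 8 genes known as transcriptional readouts of Wnt signalling, where 2.02% of all genes were called. This list too was written with results of these arrays known, so nothing is read from the share. In PAX3-FKHR/GFP cells Sp5 exceeded its GFP/+ level by 1.35 (SE 0.116, limma adjusted p = 0.00013), as were Apcdd1, a membrane inhibitor of Wnt, by 1.10 (SE 0.0997, limma adjusted p = 0.00018) and Nkd2, a cytoplasmic inhibitor, by 0.79 (SE 0.0784, limma adjusted p = 0.000343). Of the dimmer probe sets of these genes, 2 of 5 for Apcdd1 were called (1.08 and 1.09) and 3 were not (0.15 to 0.44), and 2 of 3 for Nkd2 were called (0.57 and 0.59) and 1 was not (0.16). Notum, which removes the lipid from Wnt proteins, was lower by -0.71 (SE 0.108, limma adjusted p = 0.00652), a call lost without PAX3-FKHR/GFP replicate 2 (-0.70, limma adjusted p = 0.0673) or GFP/+ replicate 3 (-0.67, limma adjusted p = 0.0692). Ccnd1 (0.04, SE 0.0974) and Axin2 (0.06, SE 0.0864), were the brightest of the 4 uncalled readouts.

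Between GFP/+ and GFP- cells 2 of the 51 genes were higher and 12 lower, beside 1.92% and 5.05% of all genes. Sp5 (1.21, SE 0.0747, limma adjusted p = 3.25e-06) and Nkd2 (1.36, SE 0.0849, limma adjusted p = 3.62e-06) were higher in GFP/+ cells, as Wnt16 and Rspo3 were. Apcdd1 was lower by -1.72 (SE 0.0883, limma adjusted p = 8.38e-07), and Ccnd1 (-0.14) and Axin2 (-0.06) were not called. The receptors Fzd5 (-1.63, SE 0.0984, limma adjusted p = 2.79e-06), Fzd6 (-1.06, SE 0.078, limma adjusted p = 1.2e-05) and the Wnt5a receptor gene Ror1 (-0.77, SE 0.073, limma adjusted p = 7.88e-05) were lower. Each of these calls rests on 1 probe set, since the dimmer ones were not called (Fzd5 -0.09, Fzd6 -0.15 and 0.2, Ror1 -0.09 and 0). Fzd2 (-0.03) and Fzd7 (-0.05) were not called. Sulf1 (-0.57, SE 0.0771, limma adjusted p = 0.001; -0.49 without GFP/+ replicate 3) and Gpc4 (-0.65, SE 0.112, limma adjusted p = 0.00464) were lower, whereas Sulf2 (0.25) and Gpc3 (-0.46) stayed under the limit. Of the dimmer probe sets 1 for Sulf1 was called (-0.56) and 1 was not (0.04), and 1 for Gpc4 (-0.39) was not called. Of the secretion and R-spondin receptor genes 0 were called from their brightest probe sets, with Porcn at -0.22, Wls at -0.35, Lgr4 at -0.07 and Znrf3 at -0.13, but a dimmer Wls probe set was lower by -0.70 (SE 0.0722, limma adjusted p = 0.000136).

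Markers of other tissues differed between the same groups. Summed intensities of surface ectoderm markers were 397 to 467 in PAX3-FKHR/GFP cells, 378 to 403 in GFP/+ cells and 3143 to 3332 in GFP- cells, with 4 of 7 lower in GFP/+ than in GFP- cells, the same direction as Wnt6, Wnt4 and Wnt5a. Intermediate mesoderm markers summed to 70 to 77 in PAX3-FKHR/GFP cells, 77 to 80 in GFP/+ cells and 323 to 369 in GFP- cells, with 4 of 5 lower, and lateral plate markers to 534 to 668, 424 to 439 and 1820 to 1862 in the same order of groups, with 4 of 6 lower. Endothelial markers (3 of 5 lower) and primitive erythroid markers (3 of 3 lower) also moved this way, the erythroid sum being 1869 to 2187 in PAX3-FKHR/GFP cells, 1334 to 1401 in GFP/+ cells and 35268 to 35531 in GFP- cells. Between the genotypes 1 of 6 lateral plate markers (Prrx1, by 0.65) and 1 of 3 erythroid markers (Hbb-y, by 0.65) were called higher with PAX3-FKHR. Of the surface ectoderm, intermediate mesoderm and endothelial markers 0 were called between the genotypes. The part of these tissues in the values of the 7 genes was not tested.

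Along with Wnt16, neural crest markers summed to 2035 to 2412 in PAX3-FKHR/GFP cells, 1649 to 1776 in GFP/+ cells and 269 to 274 in GFP- cells, with 1 of 4 called higher between the genotypes and 4 of 4 between GFP/+ and GFP- cells. Sclerotome markers summed to 948 to 1087, 1034 to 1123 and 264 to 282 in that order. With PAX3-FKHR 1 of 5 sclerotome genes was called higher (Uncx, by 0.73) and 1 lower (Pax1, by -0.57). Myotome markers summed to 1397 to 1637, 2391 to 2539 and 1022 to 1091, with 4 of 6 myotome genes lower and 1, Myf5, higher with PAX3-FKHR. Markers of the neural tube, a known source of Wnt3a, summed to 1546 to 1881 in PAX3-FKHR/GFP cells, 880 to 918 in GFP/+ cells and 969 to 1029 in GFP- cells. Between the genotypes 1 of 9 was called higher (Dbx1, by 2.38), 1 lower (Pax6, by -0.74) and 7 were not called. Dbx1 averaged 10.06 with PAX3-FKHR and 7.68 in GFP/+ cells and makes up most of the rise in the sum, whereas Sox2 differed by 0.01. Tail bud and presomitic markers summed to 139 to 147, 120 to 126 and 112 to 131, with Fgf8 alone of 5 called between the genotypes, 1.46 higher with PAX3-FKHR, and Cdx2 alone between GFP/+ and GFP- cells, at -0.87. The part of these populations in the difference of Wnt16 was not tested either.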

How the data were processed

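Sorted somite cells were hybridized on Affymetrix mouse genome arrays after a two-cycle 3′ amplification, 3 per group and 9 in all. The authors deposited log2 expression values made with RMA, its version not given in the sources used here. Because RMA makes array distributions alike, a shift of all transcripts would not be seen. The labels' treatment text names forelimb buds, whereas title and tissue give interlimb somites, which was followed.

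The table held 45101 probe sets, 64 of them controls that were not tested. The rest had 1 symbol (34945), several (932) or none here (9160) in the platform annotation. Names ending in _s_at or _x_at (4529) can be shared between transcripts. The study's absence filter was not applied. In PAX3-FKHR/GFP, GFP/+ and GFP- cells 10.2%, 11.7% and 11.8% of probe sets held 2 or 3 values identical in every deposited digit, among them the brightest probe sets of Wnt11 and Wnt6 in GFP/+ cells.

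Differences were fitted with limma 3.58.1 in R 4.3.3 (lmFit, eBayes with an intensity trend) on the 6 samples of a comparison, two-sided, with Benjamini-Hochberg adjustment over 45037 probe sets, and called at an adjusted p under 0.05 and a log2 difference of at least 0.5. Both comparisons share the GFP/+ samples. The study describes biological triplicates of pooled embryos, but the labels do not say that they were separate pools, so that the p-values cover only the spread among these 9 samples, which may be technical. The number of arrays limits the precision. The code was tested on simulated data. The members, motifs, gene lists and markers were chosen with earlier results of these data known, so no p-value is given for the members and those of the lists are not independent evidence. The text names all members, every called gene of the 7 pathway lists, the brightest 2 uncalled genes of each list and the genes most like each member (highest Pearson r, 5 for Wnt16 and 2 for the others). Some listed genes, among them Tcf7, were not analysed here. Promoters came from RefSeq tables of GRCm38.p6, and figures and motif counts were made with Python 3.11.15, pandas 2.3.3 and matplotlib 3.10.9. Alternatives were the local pooled error test, a fit of all 9 samples, no intensity trend, a replicate block, a filter on low values, 2 further normalizations, no fold limit, the mean of a gene's probe sets and leaving out each sample.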

Additional observations from a re-analysis of the deposited data

How the results depend on the processing

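Of 210 values of the 14 member differences under other settings, 202 kept their direction and their side of the limits. Wnt16 was called in both comparisons under every setting run (2.35 to 2.44 and 1.90 to 1.98 with all samples, 2.32 to 2.50 and 1.76 to 2.07 with 1 left out). The Wnt11 difference between PAX3-FKHR/GFP and GFP/+ cells ranged from -0.18 to 0.01 as single samples were left out, and changed sign without PAX3-FKHR/GFP replicate 3 (0.01). Rspo3 between GFP/+ and GFP- cells fell under the fold limit with the local pooled error test (0.49) and with the mean of its probe sets (0.38), whereas Wnt6 in that comparison was called with the mean (-0.52). With no fold limit 3 member probe sets instead of 1 passed between the genotypes, and 2282 genes instead of 1267 between GFP/+ and GFP- cells. Leaving out 1 sample at a time gave 228 to 350 genes between the genotypes (368 with all samples; 228 when PAX3-FKHR/GFP replicate 2 and 239 when GFP/+ replicate 2 was left out), and 1204 to 1267 between GFP/+ and GFP- cells. It gave 1 member probe set each time between the genotypes and 7 to 8 between GFP/+ and GFP- cells.

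With the replicate number as a block, 358 and 1272 genes were called, and 1 and 7 member probe sets, so that no call of a member changed. Same-numbered samples correlated in their deviations at -0.0957 to 0.0794 between the genotypes and at 0.00946 to 0.0936 between GFP/+ and GFP- cells. Samples of unlike number lay at -0.0923 to 0.0328 in the second comparison. The numbers were not taken to pair samples. With 3 arrays a group, small differences such as those of Wnt3a, Wnt4 and Wnt11 between the genotypes, cannot be told from 0, and RMA values of dim probe sets understate change.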
